A study of Mus musculus with 9 samples.

Results

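The genes described are the receptor Fn14 (Tnfrsf12a), its ligand TWEAK (Tnfsf12) and 8 components of NF-κB signaling: Traf2, Birc3, Nfkbia, Nfkb1, Rela, Nfkb2, Relb and Bcl3. These 10 genes were taken by symbol from the 55487 genes of the count table, and all 10 were among the 14851 genes with enough counts to be tested. They were measured by sequencing polyadenylated RNA of whole gastrocnemius muscle from 9 mice. The Control group (n = 4 libraries) came from mice in conventional cages, the Unloading group (n = 2) was taken after 10 days with the hindlimbs raised off the cage floor by the tail, and the Reloading group (n = 3) was taken 1 day after such mice went back to normal cage activity. The labels give every mouse as wild-type, male and C57BL/6, with no age, while in the study's methods the mice put through unloading were female. Each library is labelled as a replicate of its group, and p-values measure the spread between these libraries.

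Fn14 is a small member of the TNF receptor superfamily without a death domain. Binding of TWEAK gathers TRAF adaptors and inhibitor-of-apoptosis proteins such as Birc3 at its tail, which feeds both branches of NF-κB signaling. In the canonical branch the IκB kinases release dimers of Rela and the Nfkb1 product from the inhibitor Nfkbia, and in the noncanonical branch the kinase Map3k14 (NIK) drives processing of the Nfkb2 product, which pairs with Relb. Fn14 is known as a scarce receptor of resting muscle that rises with denervation and injury. Transcript levels, measured here, do not report the protein or its activity.

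Tnfrsf12a (ENSMUSG00000023905) spans chr17:23675445-23677468 on the minus strand of GRCm38, and none of its 1932 exonic bases is shared with another annotated gene. RefSeq promoter windows of the same build (GRCm38.p6) were found for 7 of the 10 genes, in 9 windows, and the 250 bases before each start were searched on both strands for the NF-κB consensus of 10 bases, AP-1 (TGANTCA), the CArG box, a TATA motif (TATAAA), the cyclic AMP response element (TGACGTCA) and the SP1 core (GGGCGG). The NF-κB consensus lay in every window of Nfkb2, a gene with several starts, and in that of Nfkbia, 2 of the 7 genes. It lay in 3.90% of all 32851 windows, a share that counts windows and not genes and so is not a like measure. The stretches below are shown because Tnfrsf12a was the gene that rose most and because Nfkb2 and Nfkbia held the matches; capitals mark the NF-κB consensus. The Tnfrsf12a stretch ends where its annotated exon begins.
Tnfrsf12a, chr17:23677469-23677699, minus strand: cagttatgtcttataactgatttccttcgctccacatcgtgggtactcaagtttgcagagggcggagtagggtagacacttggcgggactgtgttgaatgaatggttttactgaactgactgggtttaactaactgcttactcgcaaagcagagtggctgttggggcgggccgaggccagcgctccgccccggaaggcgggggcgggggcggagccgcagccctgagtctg
Nfkbia, chr12:55492648-55492897, minus strand: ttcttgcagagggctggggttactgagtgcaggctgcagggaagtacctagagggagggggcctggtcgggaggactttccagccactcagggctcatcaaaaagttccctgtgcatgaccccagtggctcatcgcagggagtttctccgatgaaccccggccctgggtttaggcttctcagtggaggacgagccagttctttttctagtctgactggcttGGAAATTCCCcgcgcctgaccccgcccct
Nfkb2, start A, chr19:46304688-46304717, plus strand: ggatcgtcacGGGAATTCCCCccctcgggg
Nfkb2, start B, chr19:46305449-46305478, plus strand: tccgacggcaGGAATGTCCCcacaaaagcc
Nfkb2, start C, chr19:46305695-46305724, plus strand: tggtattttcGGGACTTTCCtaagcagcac

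The Tnfrsf12a window held no match to the NF-κB consensus, AP-1, the CArG box, TATAAA or TGACGTCA, and held GGGCGG at 5 positions, a motif found in 32.7% of all windows. The Nfkbia match began 29 bases before the RefSeq start. At Nfkb2 start A the capitals cover overlapping matches that began 39 and 38 bases before it, and another match began 11 bases before it. The stretches at Nfkb2 starts A and C lie wholly or mostly in annotated Nfkb2 exons of other transcripts. The windows of Traf2, Bcl3, Birc3 and Rela held no NF-κB match. These matches describe letters in a window and were not tested as sites.

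Libraries held 9252443 to 19612101 counts. These are read pairs per the header of the count table, and the series' design text gives paired-end libraries, whereas the study's methods describe single reads. At this depth 1 count was worth 0.0546 to 0.113 counts per 1000000 (CPM) after TMM scaling, a trimmed-mean normalization of library totals. Muscle fiber genes such as Myh4 and Ckm were abundant in every library, with a summed level of 144967 to 162129 CPM in Control and Unloading and 103377 to 115678 CPM in Reloading. Control 2 and Reloading 1 stood apart by keratins and other skin keratinocyte genes (7 genes, all tested). These summed to 292 and 133 CPM against 2.31 to 4.38 CPM in the rest. Counts of genes called against Unloading are therefore also given without these 2 libraries. The share of all genes called in that smaller fit is not given, so a lower count there cannot be told apart from the effect of fewer libraries. In whole muscle, fewer cells of a type and less RNA per cell cannot be told apart.

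Fn14 transcript was low in Control and Unloading muscle and high in every Reloading library. Tnfrsf12a stood at 9.36, 12.4, 8.86 and 6.43 CPM in Control, at 9.51 and 6.72 CPM in Unloading and at 166, 160 and 126 CPM in Reloading. The lowest Reloading library lay above every other library by an order of magnitude, while the Control and Unloading ranges overlapped. Tnfrsf12a rose 18.8-fold from Unloading to Reloading (log2 fold change 4.23 ± 0.20 (SE), adjusted p = 2.47e-09, edgeR quasi-likelihood F-test) and ranked 52nd from the top of the 14851 genes by log2 fold change. Against Control it was 16.2-fold higher in Reloading (4.02 ± 0.16, adjusted p = 9.23e-11). After 10 days of unloading alone its log2 fold change was -0.21 ± 0.21, with a 95% confidence interval of -0.67 to 0.24 and an adjusted p of 0.578.

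TWEAK, the ligand, showed no such change. Tnfsf12 (ENSMUSG00000097328, chr11:69686250-69695849) was at 2.93, 3.98, 3.43 and 2.40 CPM in Control, 4.04 and 4.15 CPM in Unloading and 3.95, 3.18 and 3.77 CPM in Reloading. All 9 libraries thus lay between 2.40 and 4.15 CPM. The log2 fold change from Unloading to Reloading was -0.18, with a 95% confidence interval of -0.61 to 0.26 and an adjusted p of 0.531, so the interval excludes a rise of the size seen for the receptor. Of the 1515 exonic bases of Tnfsf12, 731 (48.3%) are shared with Tnfsfm13, a readthrough gene on the same strand that received 2 to 10 read pairs per library. With this counting, read pairs that fall on exons of both genes are assigned to neither, so the Tnfsf12 level is a lower reading in every group.

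**Figure D1:**
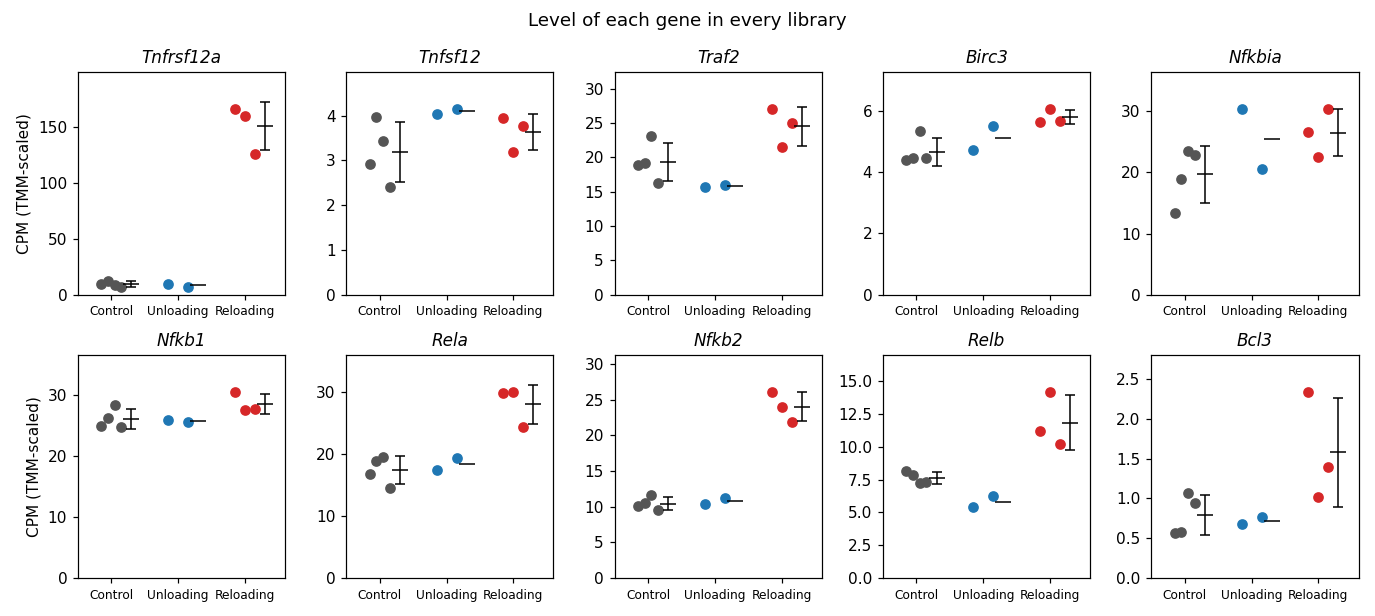
Level of the 10 genes in CPM (vertical axes from 0) in Control (4 libraries, gray), Unloading (2, blue) and Reloading (3, red); points are libraries, dashes group means and bars the SD, drawn for Control and Reloading only. Tnfrsf12a lies between 126 and 166 CPM in Reloading and at 12.4 CPM or less elsewhere, while Tnfsf12 stays between 2.40 and 4.15 CPM.

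Per exon length, as fragments per kilobase and 1000000 (FPKM, here TMM-scaled CPM divided by exon kilobases), the receptor changed place among its relatives. Tnfrsf12a was at 4.79 ± 1.26 FPKM in Control (SD, n = 4), rank 4 of 25 TNF receptors after Ltbr (9.05 ± 1.35), Tnfrsf21 (8.74 ± 0.71) and Tnfrsf1a (6.26 ± 0.79). The Control levels of Ltbr and Tnfrsf21, and those of Tnfrsf12a and the next receptor Eda2r (4.22 ± 0.35 FPKM), differed by less than the larger SD of each pair. In Unloading Tnfrsf12a had rank 5, at 4.92 and 3.48 FPKM in the 2 libraries, and Eda2r (mean 6.80 FPKM) stood above it. In Reloading it was first, at 77.9 ± 11.1 FPKM (SD, n = 3), followed by Ltbr at 10.3 ± 1.2 FPKM.

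Among 18 TNF superfamily ligands, Tnfsf12 was second in Control at 2.10 ± 0.45 FPKM (SD, n = 4) after Tnfsf10, the TRAIL ligand, at 2.44 ± 1.19 FPKM, a gap smaller than either SD. It was first in Unloading (2.67 and 2.74 FPKM) and in Reloading (2.40 ± 0.27 FPKM), ahead of Tnfsf10 (mean 1.30 FPKM in Unloading, 0.857 ± 0.112 FPKM in Reloading). Over the 784 bases of Tnfsf12 that no other gene shares, its level would be 3.06 to 5.30 CPM per kb, so its place in Control depends on the length used. The receptor-to-ligand ratio of FPKM was 2.50, 2.43, 2.03 and 2.10 in Control, 1.84 and 1.27 in Unloading and 32.9, 39.4 and 26.2 in Reloading. These ratios use the full exon length of the ligand and would be lower over its unshared bases. There the ligand, at 5.16 and 5.30 CPM per kb in Unloading, would stand above the receptor (4.92 and 3.48 FPKM). In every Control and Reloading library the receptor would remain higher. The ratio was higher in every Reloading library than in any other, and its rise was that of the receptor.

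**Figure D2:**
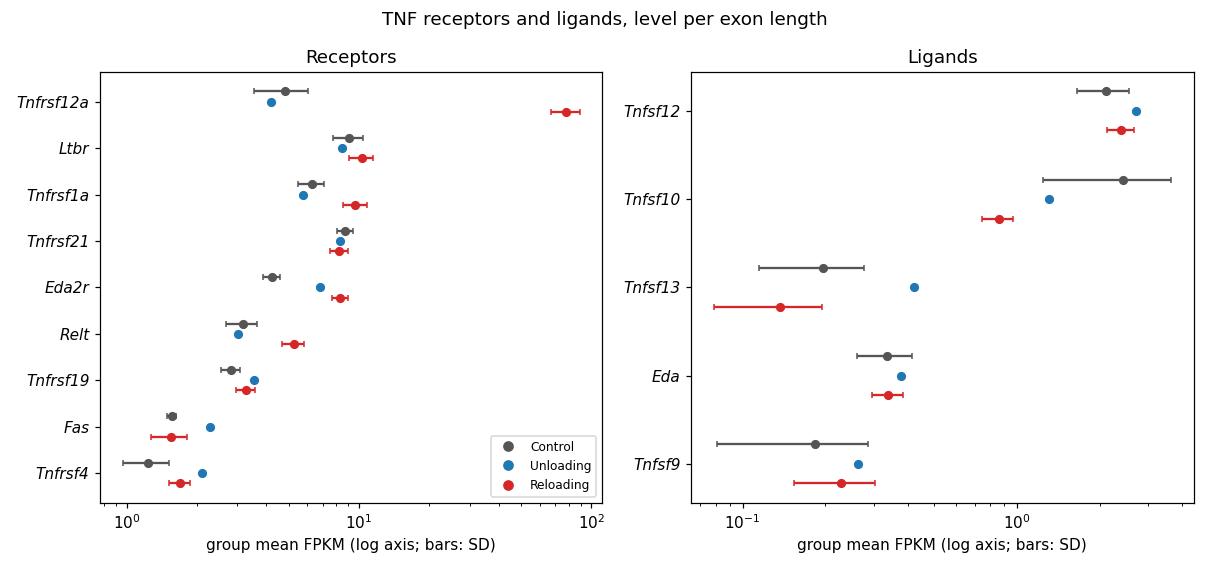
Group mean FPKM (horizontal log axis) of the 9 TNF receptors and 5 TNF ligands with the highest levels, in Control (gray, n = 4), Unloading (blue, n = 2) and Reloading (red, n = 3); bars are the SD for Control and Reloading. Tnfrsf12a moves from 4.79 FPKM in Control to 77.9 FPKM in Reloading, past all other receptors, and Tnfsf12 stands at 2.10 FPKM in Control and 2.40 FPKM in Reloading.

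From Unloading to Reloading, 6 of the 10 genes rose, none fell and 4 did not pass the test. Over all 14851 genes tested 37.5% passed in either direction, 18.5% higher and 19.0% lower. The members' median log2 fold change was 0.62, against 0.03 over all genes tested. The genes that rose were, by size, Tnfrsf12a, Nfkb2, Bcl3, Relb, Traf2 and Rela. Without Control 2 and Reloading 1, a fit with no share of all genes given, 5 of them rose, and Bcl3 did not. The members were not drawn at random, so these counts describe the 10 genes and no more.

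The noncanonical subunits Nfkb2 and Relb rose. Nfkb2 (ENSMUSG00000025225, chr19:46304320-46312385), the precursor subunit of that branch, stood at 10.0, 10.4, 11.6 and 9.52 CPM in Control, 10.3 and 11.3 CPM in Unloading and 26.0, 24.0 and 21.9 CPM in Reloading. The Reloading libraries lay wholly above the others, and Control and Unloading overlapped. The rise from Unloading was 2.21-fold (1.15 ± 0.12, adjusted p = 5.93e-06, edgeR) and that from Control 2.30-fold (1.20 ± 0.10, adjusted p = 3.24e-07). Of its 4584 exonic bases, 18.1% lie opposite exons of 4833438C02Rik or Psd, and counting ignored strand. Read pairs on exons of both genes are assigned to neither, so the Nfkb2 level is a lower reading in every group. Psd itself, at 0.677 to 1.33 CPM in Control and Unloading, stood at 2.75 to 3.63 CPM in Reloading. The effect of the shared bases on the fold change of Nfkb2 was not tested.

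Relb (ENSMUSG00000002983, chr7:19606217-19629438), the partner of processed Nfkb2, was at 8.12, 7.88, 7.22 and 7.29 CPM in Control, 5.39 and 6.23 CPM in Unloading and 11.2, 14.2 and 10.2 CPM in Reloading. The 3 groups did not overlap, with Unloading lowest and Reloading highest. It rose 2.03-fold from Unloading to Reloading (1.02 ± 0.16, adjusted p = 0.000149, edgeR) and was 1.56-fold above Control (0.64 ± 0.13, adjusted p = 0.000905). The difference of Unloading from Control, -0.38 ± 0.16, did not pass the threshold (adjusted p = 0.136, edgeR).

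Of the canonical subunits, Rela rose and Nfkb1 did not pass the test. Rela (ENSMUSG00000024927, chr19:5637483-5648130), which carries the transactivation domain of the canonical dimer, was at 16.7, 18.9, 19.5 and 14.4 CPM in Control, 17.4 and 19.4 CPM in Unloading and 29.7, 29.9 and 24.4 CPM in Reloading. Every Reloading library lay above every other. The rise was 1.52-fold from Unloading (0.60 ± 0.13, adjusted p = 0.00247, edgeR) and 1.60-fold from Control (0.68 ± 0.11, adjusted p = 0.000177).

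Nfkb1 (ENSMUSG00000028163, chr3:135584655-135691547), its partner, was at 24.8, 26.1, 28.2 and 24.6 CPM in Control, 25.8 and 25.5 CPM in Unloading and 30.4, 27.4 and 27.7 CPM in Reloading. Reloading lay above Unloading and overlapped Control. The log2 fold change from Unloading was 0.15, with a 95% confidence interval of -0.05 to 0.35 (adjusted p = 0.222, edgeR). That interval lies below the interval of Nfkb2, which ran from 0.89 to 1.40, although the difference between the 2 genes was not itself tested.

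Bcl3 (ENSMUSG00000053175, chr7:19808462-19822770), an atypical IκB protein that acts in the nucleus with Nfkb1 and Nfkb2 products and has been tied to disuse atrophy, was scarce, with 5 to 29 read pairs per library. Its level was 0.564, 0.580, 1.07 and 0.944 CPM in Control, 0.674 and 0.765 CPM in Unloading and 2.34, 1.01 and 1.39 CPM in Reloading. Reloading 2 lay within the Control range, and Reloading 1 was the highest library. The rise from Unloading passed narrowly (1.10 ± 0.40, adjusted p = 0.0442, edgeR), as did that from Control (0.94 ± 0.34, adjusted p = 0.0374). Without Reloading 1 the rise from Unloading was 0.73 (adjusted p = 0.193), and the test of DESeq2 gave an adjusted p of 0.155. The call hung on single libraries. It passed in 8 of the 18 alternatives for Unloading, with adjusted p from 0.0146 to 0.193, and in 10 of 18 for Control. Leaving out Control 4, Unloading 1, Unloading 2 or Reloading 3 also ended the call against Unloading, with log2 fold changes of 1.10, 1.02, 1.20 and 1.18. Against Control, leaving out Control 1, Control 2, Reloading 1 or Reloading 3 ended it, at 0.83, 0.80, 0.57 and 1.02. Blocked on the numbers in the sample descriptions, which were not settled to mark pairs, Bcl3 gave 0.86 against Control (adjusted p = 0.0679, edgeR).

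Traf2 (ENSMUSG00000026942, chr2:25517982-25546940), the adaptor that binds the Fn14 tail, was at 18.9, 19.1, 23.1 and 16.3 CPM in Control, 15.7 and 16.0 CPM in Unloading and 27.1, 21.6 and 25.0 CPM in Reloading. Unloading lay under both other groups, and Reloading overlapped Control only through Control 3. The rise from Unloading was 1.55-fold (0.63 ± 0.14, adjusted p = 0.00217, edgeR). Against Control the rise was 1.26-fold (0.33 ± 0.11, adjusted p = 0.0258) and was lost on leaving out Control 1, Control 4, Reloading 1 or Reloading 3, at log2 fold changes of 0.32, 0.26, 0.26 and 0.32 (adjusted p from 0.0524 to 0.119), and without Control 2 and Reloading 1 together (0.25, adjusted p = 0.158).

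Birc3 (ENSMUSG00000032000, chr9:7848699-7873186), an inhibitor-of-apoptosis ubiquitin ligase that works with Traf2, was at 4.40, 4.48, 5.36 and 4.46 CPM in Control, 4.72 and 5.52 CPM in Unloading and 5.64, 6.07 and 5.70 CPM in Reloading. Reloading lay just above the other groups, by less than their spread. Its log2 fold change was 0.17 from Unloading, with a 95% confidence interval of -0.16 to 0.50 (adjusted p = 0.402, edgeR), and 0.30 from Control (adjusted p = 0.0823).

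Nfkbia (ENSMUSG00000021025, chr12:55489410-55492647), which encodes IκBα, the inhibitor that NF-κB itself induces, stood at 13.3, 19.0, 23.6 and 22.9 CPM in Control, 30.4 and 20.5 CPM in Unloading and 26.7, 22.6 and 30.4 CPM in Reloading. All 3 groups overlapped. From Unloading its log2 fold change was 0.07, with a 95% confidence interval of -0.35 to 0.49 (adjusted p = 0.802, edgeR). Against Control it was 0.42 ± 0.17 in Reloading (adjusted p = 0.0612), and it passed in 9 of 18 alternatives, with adjusted p from 0.000285 to 0.227. Among them were those without Control 3, Control 4, Unloading 1, Unloading 2 or Reloading 2, at log2 fold changes of 0.51, 0.49, 0.42, 0.42 and 0.52.

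After 10 days of unloading none of the 10 genes passed the test against Control, where 9.90% of all genes did. DESeq2 also called 0. Only Relb and Traf2 had an unadjusted p under 0.05 (edgeR), a limit for which the share of all genes is not given here. Their log2 fold changes were -0.38 and -0.29, and the largest positive values were 0.35 for Tnfsf12 and 0.35 for Nfkbia, all short of the threshold. Only 2 Unloading libraries entered this comparison. The 95% confidence interval was widest for Bcl3, the scarcest of the 10 genes (-1.07 to 0.76), and narrowest for Nfkb1 (-0.21 to 0.17). For Bcl3 it was also wide in Reloading against Control (0.21 to 1.67), which compares no Unloading library.

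Reloaded muscle was compared with muscle that had never been unloaded to ask how far it lay from Control. Against Control, 6 of the 10 genes were higher in Reloading and none lower, where 43.5% of all genes passed, 22.1% higher and 21.3% lower. They were Tnfrsf12a, Nfkb2, Bcl3, Rela, Relb and Traf2. Without Control 2 and Reloading 1, a fit with no share of all genes given, 4 passed: Tnfrsf12a, Nfkb2, Rela and Relb. This comparison shares its Reloading libraries with the comparison against Unloading, so the pair do not count as separate evidence.

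**Figure D3:**
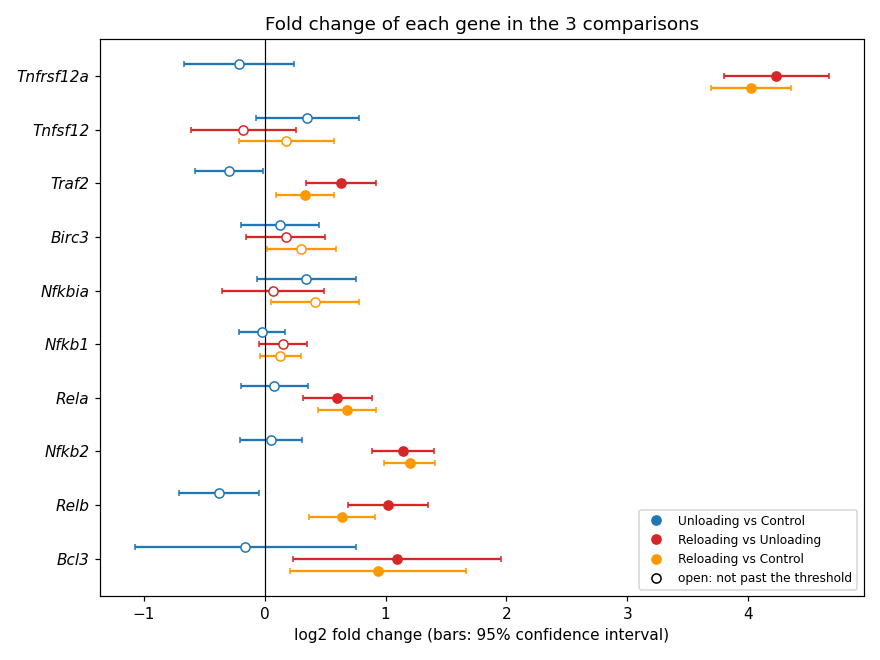
Log2 fold change (horizontal axis) of the 10 genes in Unloading against Control (blue), Reloading against Unloading (red) and Reloading against Control (orange); bars are 95% confidence intervals and open points did not pass the adjusted threshold of 0.05. Tnfrsf12a sits at 4.23 and 4.02 in the Reloading comparisons, Nfkb2 at 1.15 and 1.20, and no gene passes in Unloading against Control.

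The scale of these changes depends on how libraries were normalized. Scaled by library totals alone, the median log2 fold change of all genes was 0.27 from Unloading to Reloading and 0.25 from Control to Reloading, against 0.03 and 0.01 with TMM. On that scale 8 members passed against Unloading, Nfkb1 (0.40) and Birc3 (0.42) included, and 9 against Control. The share of all genes that passed on that scale is not given here, so these counts are not a result about the members alone. Tnfrsf12a, Nfkb2, Rela, Relb and Traf2 rose from Unloading under every normalization, and no member was called lower under any.

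Markers of cells other than muscle fibers also changed with reloading. Of all genes tested, 18.5% rose and 19.0% fell from Unloading. Macrophage markers (10 genes, all tested) summed to 78.3 to 90.8 CPM in Control, 80.6 to 83.4 CPM in Unloading and 157 to 177 CPM in Reloading, and 9 of 10 rose from Unloading. Cd68 alone made up much of that gain, with means of 3.05 CPM in Unloading and 45.9 CPM in Reloading. The others that rose had log2 fold changes from 0.57 (Lyz2) to 1.57 (Fcgr1), and Cd163 did not pass (-0.10). Endothelial markers (7 genes) summed to 164 to 194, 166 to 167 and 280 to 349 CPM in the same order, and 6 of 7 rose. Smooth muscle markers rose in 4 of 6 and fell in 1, and fibroblast markers rose in 3 and fell in 2 of 6. The smooth muscle list includes Des, which did not pass (-0.14). Des lay at 3603 to 4738 CPM against 19.7 to 49.0 CPM for Myh11, so its level cannot be read as smooth muscle alone. Satellite cell and myoblast markers rose in 3 of 6, namely Myod1, Myog and Vcam1, the last of which is also listed among the NF-κB target genes below. Pax7 (-0.15), Myf5 (-0.33) and Cdh15 (-0.27) did not pass. Muscle fiber markers fell in 6 of 9. Without Control 2 and Reloading 1, 8 of the 10 macrophage markers rose, and the counts for endothelium, smooth muscle, satellite cells, fibroblasts and muscle fibers were equal to these. Of 6 neutrophil markers 2 were measurable and neither passed, and none of 7 T and B cell markers had enough counts to be tested (summed level at most 2.16 CPM). The part of these cells in the changes of the members was not tested.

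The genes whose levels across the 9 libraries lay closest to those of Tnfrsf12a were Xirp1, Hspb1, Flnc, Cd68 and Mustn1, by the root mean square difference of gene-centered log2 CPM over 9873 genes with a mean log2 CPM of at least 2. Xirp1 and Flnc encode actin-binding proteins of muscle fibers, Hspb1 is a small heat shock protein, Cd68 is a lysosomal glycoprotein of macrophages, and Mustn1 is the microprotein gene at the center of the study. The differences were 0.25, 0.27, 0.33, 0.36 and 0.38 log2 units. Their log2 fold changes from Unloading to Reloading were 4.17, 3.86, 3.68, 3.93 and 4.16, against 4.23 for Tnfrsf12a. Tnfrsf12a was far less abundant than Flnc, whose mean level in Reloading was 8158 CPM, and more abundant than Cd68, at 45.9 CPM. Closest to Tnfsf12 were Bicra, Rgs4, Pip4p1, Xrcc3 and Ess2, with differences of 0.11 to 0.13 log2 units.

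**Figure D4:**
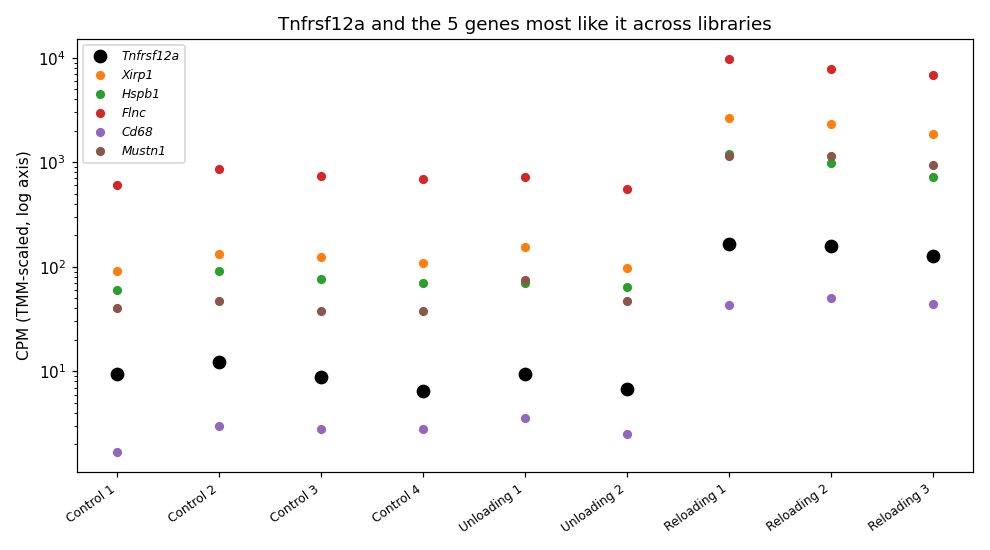
CPM (vertical log axis) of Tnfrsf12a (black) and the 5 genes with the most similar pattern in each of the 9 libraries. All 6 genes are higher in the 3 Reloading libraries than in any Control or Unloading library, with Reloading means of 45.9 CPM for Cd68 and 8158 CPM for Flnc.

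Around the 10 genes, 103 other genes of the pathway were listed in 6 groups, of which 73 were tested. From Unloading to Reloading 22 rose and 10 fell, so that 43.8% passed, against 37.5% of all genes tested. Higher genes made up 30.1% of the list, against 18.5% of all genes, and lower genes 13.7%, against 19.0%. Scaled by library totals the split was 35 higher and 1 lower, so the balance of directions rests on the normalization. Without Control 2 and Reloading 1, 16 rose and 6 fell, 22 in all, without Unloading 2 17 and without Reloading 2 21. After unloading alone 3 of the 73 passed (Bcl2l1 and Eda2r higher, Traf3 lower), 4.11% against 9.90% of all genes, and the count was 5 without Control 2 or without Control 4 and 1 without Unloading 1. Against Control 30 were higher and 8 lower in Reloading, 52.1% against 43.5% of all genes, and with library totals the split was 43 and 4. Without Control 2 and Reloading 1, 30 passed. Where a group below had few genes that rose or fell, those outside the naming rule are also named, chosen after their values were seen.

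Of the kinases above NF-κB, 2 of 10 rose and 2 fell, close to the 18.5% higher and 19.0% lower among all genes tested. Map3k14, the NIK kinase that starts the noncanonical branch, went from 7.78 to 8.41 CPM in Unloading to 18.6 to 26.1 CPM in Reloading, and its Control libraries lay between 6.77 and 8.37 CPM. It rose with a log2 fold change of 1.46 ± 0.15 (adjusted p = 4.67e-06, edgeR), the largest among the kinases and above that of any member except Tnfrsf12a. Ikbkb, a catalytic IκB kinase subunit, rose by 0.38 (adjusted p = 0.0132), a call lost without Unloading 2 (0.35) or Reloading 1 (0.30). Map3k7 (TAK1), which activates the IκB kinases, fell by 0.35 on the log2 scale (adjusted p = 0.00154), a fall that did not pass with library totals (-0.10). The other kinase gene that fell was Tab2 (-0.34), which encodes a partner of TAK1. The count was also 2 and 2 without Control 2 and Reloading 1, with Chuk in place of Ikbkb among those that rose.

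Of 17 tested adaptors and ubiquitin ligases, 5 rose and 3 fell, where 18.5% of all genes rose and 19.0% fell. Traf3, which holds NIK at low levels by targeting it for degradation, was at 22.2 to 26.6 CPM in Control, 16.6 to 18.5 CPM in Unloading and 32.5 to 37.9 CPM in Reloading. It fell by 0.47 on the log2 scale with unloading (adjusted p = 0.0127, edgeR) and rose by 1.04 with reloading (adjusted p = 5.55e-06). Otulin, a deubiquitinase of linear ubiquitin chains, rose by 1.14 (adjusted p = 1.65e-05). Irak4, a kinase of Toll-like receptor signaling, rose by 0.68 (adjusted p = 0.0414) and kept its call in 8 of 18 alternatives; leaving out Control 3, Unloading 1, Unloading 2, Reloading 2 or Reloading 3 ended it, at 0.68, 0.80, 0.56, 0.57 and 0.73. Rnf31 (0.50) and Ripk1 (0.47), which act at the TNF receptor complex, also rose. Birc2, the close relative of Birc3, fell by 0.43 on the log2 scale (adjusted p = 0.0227), and the inhibitor of apoptosis Xiap and the adaptor Traf6 fell by 0.32 each. With Control 2 and Reloading 1 left out, 3 rose (Traf3, Otulin and Rnf31) and 2 fell (Birc2 and Xiap).

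Among 17 tested TNF receptors besides Fn14, 5 rose and 2 fell, where 18.5% of all genes rose and 19.0% fell. The genes with the largest rise were Tnfrsf25, a death receptor of lymphoid cells (0.492 to 0.599 CPM in Unloading, 1.45 to 1.66 CPM in Reloading; 1.53 ± 0.36, adjusted p = 0.00421, edgeR), Tnfrsf10b, the TRAIL receptor (1.41 ± 0.40, adjusted p = 0.0128), and Relt (0.79 ± 0.16, adjusted p = 0.00117). The first of these was lost without Unloading 2 (1.38, adjusted p = 0.0516) and the second without Unloading 1 (0.89, adjusted p = 0.119). Tnfrsf1a, the main TNF receptor (0.74), and Eda2r (0.29) also rose, and Cd27 and Fas fell by 1.51 and 0.55 on the log2 scale. All of these values lay under the 95% confidence interval of Tnfrsf12a, which began at 3.80. In the fit without Control 2 and Reloading 1, 4 rose (Tnfrsf25, Tnfrsf10b, Relt and Tnfrsf1a) and none fell. Of 17 other TNF ligands only 3 had enough counts to be tested, and none of them passed against Unloading. Against Control, Tnfsf10 was lower in Reloading (-1.51 ± 0.29, adjusted p = 0.000604, edgeR), and Tnfsf13b and Eda did not pass. Tnf itself lay at 0.579 CPM or less in every library, and was listed at 0 in both Unloading libraries.

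Of 8 other tested Rel and IκB genes, 3 rose and 1 fell, where 18.5% of all genes rose and 19.0% fell. Rel, the hematopoietic NF-κB subunit, was at 4.17 to 4.93 CPM in Control, 3.01 and 4.04 CPM in Unloading and 4.85 to 6.69 CPM in Reloading, and rose by 0.71 (adjusted p = 0.00883, edgeR), a call lost without Unloading 2 (0.50, adjusted p = 0.134). Tnip2, an A20-binding inhibitor, rose by 0.50 (adjusted p = 0.0324), and its call ended without Unloading 1 (0.49), Unloading 2 (0.51), Reloading 1 (0.40) or Reloading 3 (0.47). Nkiras1, a small GTPase that binds IκB proteins, fell by 0.21 (adjusted p = 0.0466), kept its call under 1 of 18 alternatives, and turned to 0.04 with library totals. It lost the call with any 1 of the 9 libraries left out. Nfkbie, which encodes another IκB inhibitor, also rose (1.28, adjusted p = 0.0426). Of these 8, only Rel passed without Control 2 and Reloading 1.

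Of 18 tested NF-κB target genes, 7 rose and 2 fell, where 18.5% of all genes rose and 19.0% fell. Their median log2 fold change was 0.58, against 0.03 over all genes. The list leaves out Nfkbia, which NF-κB itself induces and which did not pass (0.07). Birc3 (0.17) and Tnfaip3, also kept in other lists, did not pass either. Tnfaip3 was at 4.94 and 3.28 CPM in Unloading and 4.90 to 5.64 CPM in Reloading. Ccnd1 (cyclin D1), a cell cycle gene, was at 2.49 to 4.23 CPM in Control, 1.35 and 2.02 CPM in Unloading and 12.9 to 21.8 CPM in Reloading. It rose by 3.34 ± 0.27 (adjusted p = 4.04e-07, edgeR). Icam1, an adhesion molecule for leukocytes, rose by 1.33 (adjusted p = 0.0022), and Myc by 0.99 (adjusted p = 0.0095); Myc did not pass without Unloading 2 (0.79, adjusted p = 0.111) or in a robust fit. Ccl2, the monocyte chemokine, was too scarce for the naming rule and is given after its values were seen: it was at 0.172 to 0.677 CPM in Control, 0.219 and 0.374 CPM in Unloading and 2.66 to 3.83 CPM in Reloading (3.39 ± 0.42, adjusted p = 2.23e-05). The 2 that fell were Gadd45b and Sod2, at -0.79 and -0.26. Leaving out Control 2 and Reloading 1, 6 rose, Ccnd1, Icam1, Myc and Ccl2 among them, and the same 2 genes fell.

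**Figure D5:**
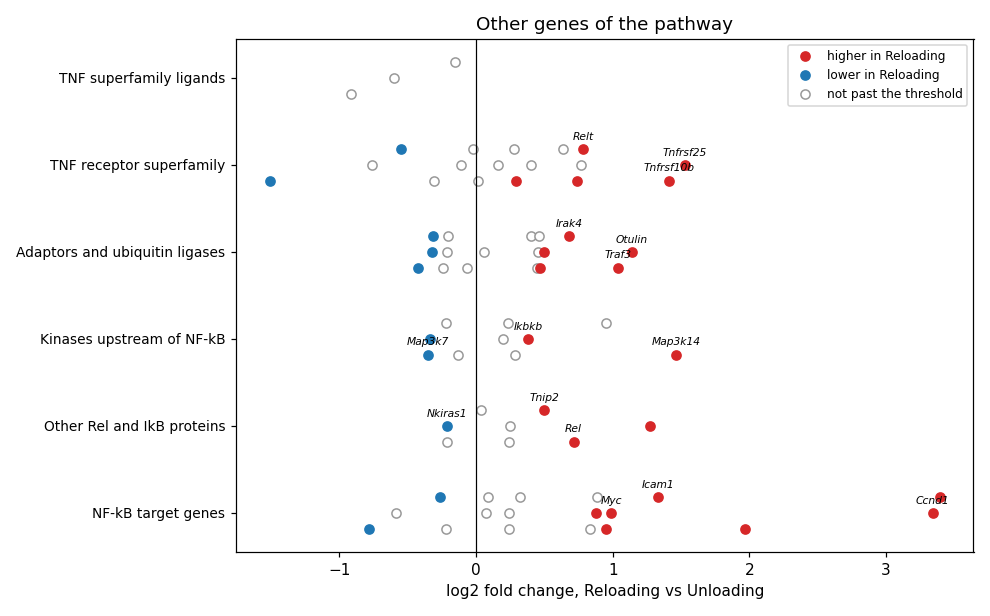
Log2 fold change from Unloading to Reloading (horizontal axis) of the 73 tested genes in 6 groups of the pathway; red points were higher, blue lower and open gray points did not pass the adjusted threshold, and the genes named by rule are labelled. Map3k14 stands at 1.46 among the kinases and Ccnd1 at 3.34 among the targets, while no TNF ligand passes.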

How the data were processed

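Whole-muscle RNA of 9 mice was sequenced as libraries of polyadenylated RNA. Per the submitters' notes and the study's methods, the authors aligned reads with STAR 2.7.3a to GRCm38.p6 and counted with featureCounts; per the file headers this was version 2.0.3, by read pairs and without strand, against Ensembl release 102. The series' design text also gives paired-end libraries, but the methods describe single reads, a conflict not settled here. The deposited counts are raw. The authors also deposited DESeq2 tables of mean signal, fold changes and p-values, of which only the pairing of gene identifiers with symbols was used here.

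The test was edgeR 4.0.16 in R 4.3.3. filterByExpr (minimum count 10, minimum total 15) kept 14851 genes, libraries were scaled by TMM, and 1 quasi-likelihood fit of all 9 libraries with group as the only term gave 3 two-sided comparisons, adjusted by Benjamini and Hochberg over all genes tested at a threshold of 0.05. Scripts were tested on simulated data. Alternatives were DESeq2 1.42.0, other scalings and filters, left-out libraries and replicate blocks. The 10 genes and all lists were chosen with earlier results of these data known. Named were all 10 genes, the 5 genes most like Tnfrsf12a and Tnfsf12, and per list the 3 genes with the largest change that passed against Unloading with a mean log2 CPM (prior count 2) of at least 0.

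Deviations of same-numbered libraries were correlated to check pairing. Numbers in the titles did not pair them (from -0.20 to 0.08). By numbers in the sample descriptions, Control and Reloading pairs gave 0.36, 0.14 and 0.16, the first being the libraries with skin genes. Pairs of these groups with unlike numbers gave -0.22 to 0.12, so 0.14 and 0.16 lie close to the highest of them. Whether these libraries were paired was not settled. Same-numbered pairs of other groups gave 0.02 to 0.08. No 2 libraries were alike within counting noise.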

Additional observations from a re-analysis of the deposited data

Results flagged for a closer look

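In the Control group of 4, Birc3 in Control 3 stood at 5.36 CPM against 4.40 to 4.48 CPM in the other libraries, a gap beyond Dixon's 95% critical value for 4 samples. Cd68, the macrophage gene among those most like Tnfrsf12a, stood at 1.69 CPM in Control 1 against 2.79 to 2.98 CPM in the others. The Control group was looked at in this way for 35 genes, and chance passes this limit in about 1 of 20 groups.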

How the results depend on the processing

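Tnfrsf12a, Nfkb2, Rela and Relb rose in Reloading against Unloading and against Control under all 18 alternatives, with Tnfrsf12a between 3.98 and 4.50 and between 3.86 and 4.26 on the log2 scale. Traf2 rose from Unloading under all 18 as well. Members called ranged from 5 to 6 (Unloading) and 4 to 7 (Control) when 1 library was left out; an Unloading library left alone is taken to vary like the other groups. With a replicate block, 5 members passed in each Reloading comparison and Bcl3 did not, by title numbers (0.98 against Unloading, adjusted p = 0.106) or description numbers (1.09, adjusted p = 0.107). By title numbers Traf2 did not pass against Control and Nfkbia did. Pathway genes blocked by title numbers came to 29, 4 and 31 in Reloading against Unloading, Unloading against Control and Reloading against Control, and by description numbers to 26, 4 and 39.

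Pathway genes called against Unloading ranged from 17 (without Unloading 2) to 32 with 1 library left out, against 32 in all, and were 21 without Reloading 2. In Unloading against Control they ranged from 1 (without Unloading 1) to 5 (without Control 2 or Control 4) and were 5 without Control 2 and Reloading 1. With no filter on low counts that comparison gave 1 member (Nfkbia) and 7 pathway genes. Nkiras1 turned to 0.0386 with library totals. The causes of these shifts were not tested. Of all values recomputed for single genes, 907 kept direction and side of the threshold, 68 lost a call, 14 gained 1 and 1 turned. Counts of 5 to 29 per library limit the precision for Bcl3, and the number of Unloading libraries, 2, limits both comparisons that use them.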
